A study of Eragrostis tef with 16 samples.

Results

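The tissue identity of tef (Eragrostis tef, an allotetraploid cereal of the Ethiopian highlands whose genome holds an A and a B subgenome) was read from root libraries set against shoot libraries, both from plants grown in hydroponic solution with optimum calcium. The comparison takes every gene that has values in 4 root libraries and 4 shoot libraries, 8 of the 16 libraries of the series, and it covers 5824 genes. The remaining libraries came from root and shoot of plants grown with low calcium and enter here as a shared estimate of the spread and as a repeat of the tissue comparison. The labels name no cultivar, plant age or tissue part, and they do not say whether the 4 replicates of a group were separate plants. Each p-value therefore measures only the spread between these libraries, which may be technical.

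The values are reads on genes that the file heads as target gene IDs. Each gene carries an ID that names its chromosome and subgenome (Et_3B_031448 lies on chromosome 3 of subgenome B) and, for 5606 genes, the description of its best hit in a related grass. What they are targets of is not stated, and the series was typed as non-coding RNA profiling, so whether the reads are messenger RNA or small RNA on these genes is unknown. Higher and lower refer to these reads. All levels below are log2(scaled reads + 1) as the authors deposited them, a log2 change is root minus shoot, and a gene is said to be higher or lower in root only where its Benjamini-Hochberg adjusted p from limma over all 5824 genes was at most 0.05. Gene lengths are not given, so levels are compared between tissues, and where genes are ranked by reads the rank is of reads per gene and not per length.

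Roots and shoots divide the work of a grass plant. Shoots hold the green cells in which chloroplasts capture light and fix carbon, in tef by the C4 pathway, and load sucrose into the phloem. Roots take up water and mineral ions across a set of membrane transporters, release iron-binding mugineic acids made from nicotianamine in the way typical of grasses, grow from a dividing tip behind a root cap, and stiffen their walls with lignin and suberin. These roles are background knowledge on grasses and give the order in which the genes are described.

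Read depth was close in the 2 tissues. The genes listed summed to 2804540 ± 500347 reads in root (SD, n = 4, range 2320585 to 3443266) and 2695698 ± 104294 in shoot (SD, n = 4, range 2626551 to 2849519), and a two-sided exact permutation test of depth gave p = 0.771. Spearman correlations of the log2 values, taken over genes, which are not independent replicates, ran from 0.886 to 0.984 among root libraries, from 0.930 to 0.983 among shoot libraries and from 0.378 to 0.555 between tissues. Root replicate 3 lay farthest from the other libraries of its tissue, with a median absolute deviation of 0.371 log2 units against 0.147 to 0.292 for the other 7. The reads of the shoot were held by fewer genes. The 10 genes with the most reads in a library took 6.94% ± 1.54 of root reads and 14.5% ± 1.79 of shoot reads (SD, n = 4 each), and 628 genes made up 50% of root reads against 405 genes of shoot reads.

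Most of the genes separated the tissues. Of 5824 genes, 3878 (66.6%) passed limma's test at the threshold, 1916 higher (32.9%) and 1962 lower (33.7%) in root, and 1946 did not pass. Among those that passed, 2660 (45.7% of all genes) differed at least 2-fold, 1365 higher (23.4%) and 1295 lower (22.2%). In 3561 genes (61.1%) the 4 root values and the 4 shoot values did not overlap, with root above in 1710 (29.4%) and below in 1851 (31.8%). The split into higher and lower depends on the scale: 49.4% of calls were higher in root with the deposited scale, 52.2% of 3940 calls with median-ratio size factors and 67.4% of 4136 calls when each library was scaled to its total. The median change of all genes was -0.04 with the deposited scale and 0.02 with size factors from median ratios. It was 0.41 when each library was scaled to its total, with 2789 genes higher and 1347 lower. List counts and medians given below on that scale are to be read beside these values. Of the 3878 genes that passed, 3263 passed with the same direction after scaling by the total, and 3800 with median-ratio size factors. Of the 2660 genes past 2-fold, 2618 passed with the same direction after scaling by the total. No gene that passed under the deposited scale and under another scale turned its direction. Another scale shifts nearly all genes together, so such a turn was unlikely beforehand.

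**Figure D1:**
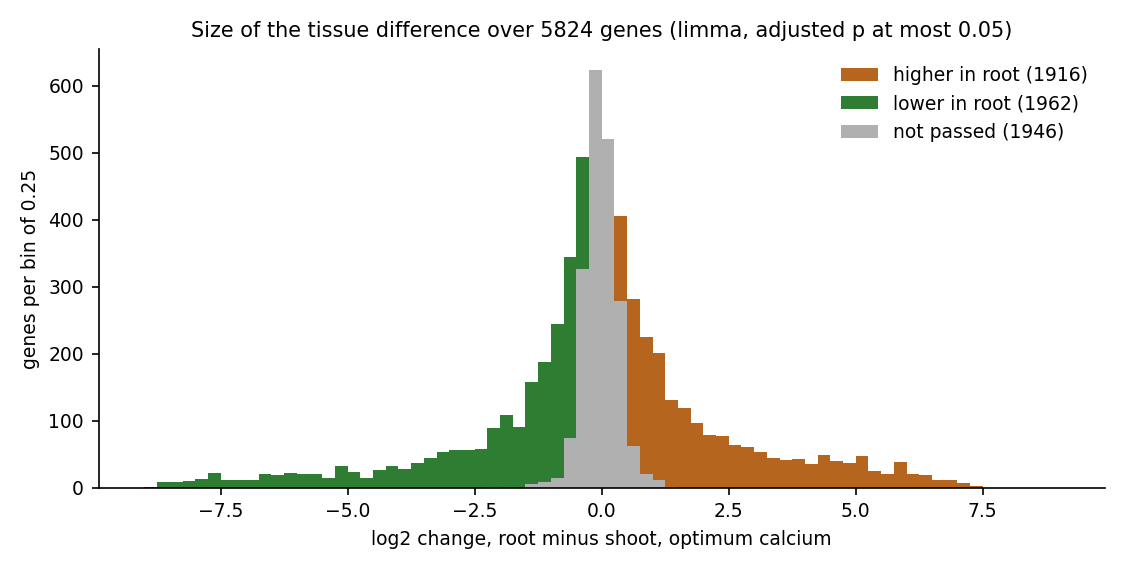
Histogram of the log2 change (root minus shoot, x axis) over 5824 genes, with the number of genes per bin of 0.25 on the y axis and the 3 call classes stacked in colour. The counts of higher and lower genes are alike, while the tail of very large changes is longer on the lower side, where 86 genes reach a log2 change of -7 or beyond against 9 genes at 7 or beyond on the higher side.

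The largest differences were of unequal size on the 2 sides. A log2 change of at least 5 was reached by 203 genes higher in root and 246 lower, and a change of at least 7 by 9 genes higher and 86 lower. The interquartile range of all genes ran from -0.85 to 0.90.

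The labelled tissues were checked against genes known to mark them. All 16 genes whose descriptions name a shoot marker (chlorophyll a-b binding proteins, photosystem proteins, protochlorophyllide reductase, the A subunit of chloroplast glyceraldehyde-3-phosphate dehydrogenase, and Rubisco activase and a Rubisco methyltransferase) were lower in root, against 33.7% of all genes, with a median log2 change of -7.37. Their summed reads took 0.0509% to 0.0938% of reads in the root libraries and 9.995% to 13.02% in the shoot libraries, and none of the 16 was without reads in root. Of 19 genes that name a root marker (nicotianamine synthases, YSL transporters, ammonium and phosphate transporters, SHORT-ROOT and SCARECROW), 12 were higher, 3 lower and 4 did not pass, against 32.9% higher and 33.7% lower of all genes, with a median of 2.05. These took 1.66% to 4.15% of root reads and 0.278% to 0.419% of shoot reads. No gene with values is described as a Casparian strip membrane protein, a root cap or root hair protein, a high-affinity nitrate transporter, phosphoribulokinase or the Rubisco subunits, so the labels were not checked on these. In bulk tissue, fewer cells of a type and less RNA per cell cannot be told apart, which holds for every difference given here.

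Genes of the light reactions were lower in root without exception. All 17 members of the light-reaction list (antenna proteins, photosystem subunits and their assembly factors, cytochrome b6-f) passed in that direction, against 33.7% of all genes, with a median change of -6.67 and a range from -8.51 to -0.87. They took 0.0907% ± 0.0257 of root reads and 10.7% ± 1.20 of shoot reads (SD, n = 4 each). Chlorophyll a-b binding protein 1, the antenna protein that passes light energy to the reaction centres, took the most reads of any gene in shoot, counted per gene and not per length, with 0.0220% ± 0.00433 of root reads and 4.65% ± 0.519 of shoot reads (SD, n = 4 each) for its B copy. That copy (Et_2B_022256) had log2 values of 8.74, 8.87, 8.33 and 8.90 in the root libraries, against 16.84, 17.005, 17.20 and 16.57 in the shoot libraries. Every shoot library lay above every root library by more than 7 log2 units, and the change was -8.19 (SE 0.23, limma adjusted p 1.0e-13). Its A copy (Et_2A_014514) changed by -7.56 (SE 0.29, limma adjusted p 2.5e-12). Photosystem I subunit O (Et_7B_053707), a small subunit at the docking side of the antenna, changed by -8.51, and the Rieske iron-sulfur subunit of the cytochrome b6-f complex (Et_1B_012551), which carries electrons between the photosystems, by -8.11. The smallest difference of the list belonged to chlorophyll a-b binding protein 7 (Et_2B_022145), at -0.87 (SE 0.25, limma adjusted p 0.0052), and when libraries were scaled to their totals 16 of the 17 passed.

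Genes of chlorophyll synthesis were on the same side. All 9 members of this list were lower in root, against 33.7% of all genes, with a median of -6.31 and a read share of 0.0260% ± 0.00339 in root and 1.74% ± 0.182 in shoot (SD, n = 4 each). The H subunit of magnesium chelatase, which commits protoporphyrin to chlorophyll, had values of 5.81, 5.64, 5.81 and 5.85 in the root libraries, against 13.99, 14.08, 14.28 and 13.50 in the shoot libraries for its A copy (Et_7A_051838). The groups were far apart, with a change of -8.18 in the A copy and -7.94 in the B copy (Et_7B_054424). Chlorophyllide a oxygenase (Et_3B_030303), which makes chlorophyll b, changed by -4.11. A gene described as geranylgeranyl diphosphate reductase, the enzyme that makes the phytyl tail of chlorophyll and of vitamin E, went the other way. This gene (Et_3A_026992) is not a member of the list, was picked after its value was seen, and was higher in root by 5.98 (SE 0.23, limma adjusted p 2.6e-12).

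Carbon fixation genes were lower in root for most members. Of 16 members 13 were lower (81.2%, against 33.7% of all genes; median of all 16 -5.47) and 3 higher in root, and the list took 0.647% ± 0.272 of root reads and 5.12% ± 0.907 of shoot reads (SD, n = 4 each). Glyceraldehyde-3-phosphate dehydrogenase A, the reducing step of the Calvin cycle, had values of 5.48, 5.42, 5.64 and 6.33 in the root libraries, against 14.33, 14.51, 14.89 and 13.78 in the shoot libraries for the B copy (Et_7B_053948), a change of -8.66 (SE 0.28, limma adjusted p 4.2e-13), and its A copy (Et_7A_051207) changed by -8.53. Rubisco activase, which clears inhibitors from Rubisco, was lower by log2 changes of -7.03, -7.60 and -8.20 in its 3 genes (Et_6A_047228, Et_6A_047236 and Et_6B_049196). Of enzymes of the C4 shuttle, carbonic anhydrase (Et_3B_028891), which makes the bicarbonate that the pathway starts from, changed by -5.03. The 59 kDa isoform of NAD-malic enzyme, which releases CO2 in the bundle sheath of some C4 grasses, changed by -5.79 in Et_1A_007018 and -5.15 in Et_1B_011825.

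The 3 members higher in root also belong to enzyme families of the C4 shuttle. Phosphoenolpyruvate carboxylase 1, an enzyme that adds bicarbonate to phosphoenolpyruvate and has C4 and housekeeping forms in grasses, had values of 12.22, 11.67, 13.37 and 11.48 in the root libraries, against 8.80, 8.87, 9.02 and 8.99 in the shoot libraries in its B copy (Et_1B_014155). All root values lay above all shoot values, and the change was 3.26 (SE 0.30, limma adjusted p 7.5e-08). The A copy (Et_1A_007735) was higher by 2.89. Pyruvate, phosphate dikinase 2 (Et_4B_037143), which regenerates phosphoenolpyruvate, was higher by 1.49 (SE 0.35, limma adjusted p 0.0013). Which form of each enzyme these genes encode was not determined.

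Genes with a chloroplast name leaned to the shoot. Of 407 genes whose description names the chloroplast, photosynthesis genes included, 323 were lower (79.4%, against 33.7% of all genes), 44 higher (10.8%, against 32.9%) and 40 did not pass, with a median of -2.15, and their reads made up 3.43% ± 0.0699 of root reads and 25.03% ± 2.85 of shoot reads (SD, n = 4 each). The largest fall of any gene was that of the UPF0603 protein Os05g0401100 (Et_9A_061766, a chloroplast protein), with log2 values of 2.67, 2.09, 3.50 and 3.06 in the root libraries, against 11.48, 11.55, 12.04 and 11.25 in the shoot libraries. The change was -8.75 (SE 0.32, limma adjusted p 1.7e-12), and its copy Et_9B_064350 changed by -8.70. Glycerate dehydrogenase (Et_6B_049049), an enzyme of photorespiration in peroxisomes, changed by -8.70, and the glycine-cleaving dehydrogenase of mitochondria (Et_3A_026867), also photorespiratory, by -3.01. Chloroplast-named genes higher in root included ATP sulfurylase 3 (Et_4B_037913, 2.05), the first enzyme of sulfate assimilation, and glutamate-cysteine ligase A (Et_9B_064610, 2.46), the first enzyme of glutathione synthesis.

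Pentatricopeptide repeat proteins, most of which bind RNA inside plastids and mitochondria, were lower for 40 of 65 members (61.5%, against 33.7% of all genes) and higher for 8 (12.3%, against 32.9%), with a median of -1.58. Of 154 genes with a mitochondrial name, 66 were lower (42.9%), 36 higher (23.4%) and 52 did not pass. When libraries were scaled to their totals 47 were lower and 59 higher, and the median of -0.25 became 0.21. On that scale 1347 of all 5824 genes were lower and 2789 higher. The median of all genes was then 0.41, so the median of the list stayed below it. Both copies of the Rieske subunit of mitochondrial complex III were higher in root by small amounts, 0.50 (Et_7A_050918) and 0.32 (Et_7B_053640).

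Genes of starch and sucrose stood on both sides. Both genes for the large subunit of glucose-1-phosphate adenylyltransferase, the committed step of starch synthesis, were lower in root by -8.72 (Et_4A_033729) and -8.40 (Et_4B_037873), as was sucrose-phosphate synthase 5 (Et_6A_047584, -8.48), which makes sucrose in leaves. The sucrose transport protein SUT1 (Et_4A_034470), which loads sucrose into the phloem in grasses, had values of 8.89, 8.47, 8.74 and 7.63 in the root libraries, against 12.01, 11.59, 11.85 and 10.95 in the shoot libraries, a change of -3.17 (SE 0.31, limma adjusted p 1.1e-07). On the root side stood sucrose synthase 2 (Et_4B_037022), which cleaves sucrose in sink tissue, at 2.48 (SE 0.37, limma adjusted p 1.8e-05), the hexose carrier MST3 (Et_5A_042574) at 1.03, and galactinol-sucrose galactosyltransferase 6 (Et_2A_017107), of raffinose metabolism, at 1.96. Over the whole sugar list 18 of 37 members were lower (48.6%, against 33.7% of all genes) and 11 higher (29.7%, against 32.9%), and the median was -0.56.

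Regulators of greening and of the light response were mostly lower in root. The transcription factor GLK2 (Et_3A_023610), a member of the family that switches on chloroplast genes, had values of 2.48, 2.26, 2.70 and 2.56 in the root libraries, against 10.82, 11.03, 11.19 and 11.23 in the shoot libraries. No root library came within 7 log2 units of a shoot library, and the change was -8.57 (SE 0.20, limma adjusted p 2.3e-14). Of 23 light and clock genes 14 were lower (60.9%, against 33.7% of all genes), 3 higher and 6 did not pass, with a median of -1.21. GIGANTEA (Et_3B_030834) and the pseudo-response regulator PRR73 (Et_4A_035017), parts of the circadian clock, changed by -0.997 and -1.46, and CONSTANS-LIKE 5 (Et_2B_021037) by -4.05. The exceptions were CONSTANS-LIKE 1 (Et_8B_060408, 1.64), CONSTANS-LIKE 9 (Et_2B_021973, 2.26) and phytochrome a (Et_4A_035456, 1.28), the photoreceptor that builds up in dark tissue. The nuclear factor Y subunit C-2 (Et_4A_035845), part of a CCAAT-binding complex, changed by -8.43.

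**Figure D2:**
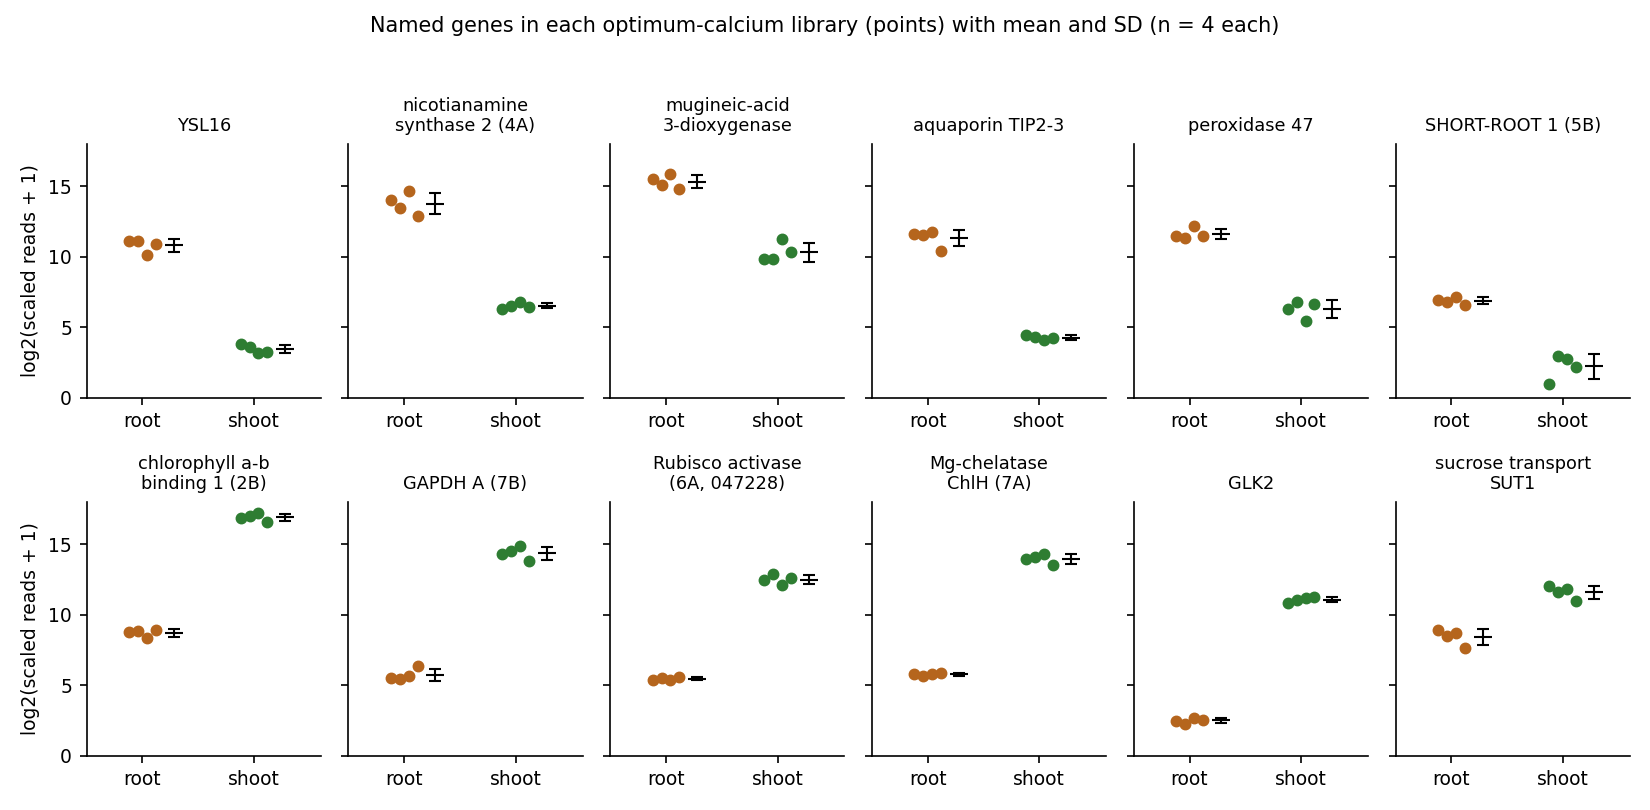
Log2(scaled reads + 1) of 12 named genes (y axis) in the 4 root and 4 shoot libraries (points), with the mean and SD of each tissue beside them (n = 4 each). In the 6 genes of the upper row all root values lie above all shoot values, and in the 6 of the lower row all lie below.

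Iron acquisition gave some of the largest root-side differences. Mugineic-acid 3-dioxygenase (Et_1A_008739), which modifies mugineic acids, the iron carriers that grass roots secrete, took the most reads of any gene in root, 2.18% ± 0.604 of root reads and 0.0515% ± 0.0223 of shoot reads (SD, n = 4 each). Its log2 values were 15.51, 15.11, 15.83 and 14.80 in the root libraries, against 9.85, 9.83, 11.26 and 10.33 in the shoot libraries. Root and shoot did not overlap, and the change was 4.996 (SE 0.38, limma adjusted p 6.6e-09). Nicotianamine synthase 2, which makes the precursor of these carriers, had values of 14.05, 13.45, 14.64 and 12.89 in the root libraries, against 6.32, 6.52, 6.79 and 6.46 in the shoot libraries in its A copy (Et_4A_031983). The A copy was higher in root by 7.24 (SE 0.48, limma adjusted p 1.3e-09) and the B copy (Et_4B_036193) by 6.95. Root replicate 4 was the lowest root library for both genes.

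The metal-nicotianamine transporters of the YSL family, which carry iron and zinc complexes across membranes, did not move as a group. YSL16 (Et_3B_031448) had the largest rise of all genes, with values of 11.10, 11.13, 10.14 and 10.87 in the root libraries, against 3.77, 3.57, 3.15 and 3.25 in the shoot libraries and a change of 7.37 (SE 0.29, limma adjusted p 2.9e-12). A second gene described as YSL16 (Et_7B_055075) was higher by 1.12 and YSL9 (Et_7A_052425) by 2.05, whereas YSL13 (Et_7A_053172) was lower by a log2 change of -1.01. Nicotianamine synthase 3 was higher in both copies, by 3.18 (Et_5A_042763) and 2.01 (Et_5B_045489). Zinc transporter 8 (Et_5B_043879), a zinc uptake carrier, was lower, at -3.16 (SE 0.39, limma adjusted p 2.1e-06). Of the 21 iron and zinc genes 10 were higher (47.6%, against 32.9% of all genes), 2 lower and 9 did not pass, with a median of 0.26 and a read share of 2.88% ± 1.06 in root and 0.438% ± 0.127 in shoot (SD, n = 4 each). The metal transporter NRAT1 (Et_1B_012701), which takes up aluminium in rice, had log2 values of 7.86 to 9.04 in root and 0.00 to 1.99 in shoot and a change of 7.27 (SE 0.41, limma adjusted p 1.6e-10).

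Water channels, the aquaporins that let water cross membranes, were higher in root. All 6 aquaporin genes were higher in root, against 32.9% of all genes, with a median of 4.19. In 4 of them all root values lay above all shoot values, which held for 29.4% of all genes. Their read share was 0.983% ± 0.317 in root and 0.156% ± 0.0398 in shoot (SD, n = 4 each). The vacuolar channel TIP2-3 (Et_7A_052379) had values of 11.61, 11.504, 11.73 and 10.43 in the root libraries, against 4.42, 4.31, 4.07 and 4.24 in the shoot libraries. The gap between the tissues exceeded 6 log2 units, and the change was 7.06 (SE 0.30, limma adjusted p 7.0e-12). The plasma membrane channel PIP1-6 (Et_2A_018705) was higher by 7.05 (SE 0.37, limma adjusted p 8.0e-11), TIP1-1 (Et_4A_031850) by 1.52, and the 2 copies of SIP1-1, a channel of inner membranes, by 1.53 (Et_6A_047605) and 1.14 (Et_6B_049495).

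Carriers of nitrogen, phosphate and silicon were divided, and more of them were lower than higher in root. Of 41 members 10 were higher (24.4%), 24 lower (58.5%) and 7 did not pass, against 32.9% and 33.7% of all genes, with a median of -1.13. Ammonium transporter 1 member 2, a root uptake carrier, was higher in both copies, by 3.60 (SE 0.30, limma adjusted p 1.6e-08) in Et_1A_009594 and 3.67 in Et_1B_014414. NRT1/PTR FAMILY 6.3 (Et_8B_059278), whose Arabidopsis counterpart both senses and carries nitrate, was higher by 1.37, and NPF3.1 (Et_9B_064381) by 6.99 (SE 0.21, limma adjusted p 1.6e-13). On the other side, NPF5.10 (Et_3B_029887) was lower, at -0.88 (-0.42 and not passed with scaling by the total), and so was the silicon efflux transporter LSI2 (Et_4B_039557, -1.83 (SE 0.23, limma adjusted p 2.6e-06)), known from rice roots. Inorganic phosphate transporter 1-8 (Et_4B_039794) was also lower, at -2.02 (SE 0.34, limma adjusted p 6.3e-05).

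Of 16 potassium channels and carriers 7 were lower (43.8%, against 33.7% of all genes) and 4 higher, with a median of -0.33 that became 0.13 with scaling by the total. The phloem channel AKT2 (Et_9A_061882) had values of 2.02, 2.09, 2.98 and 3.06 in the root libraries, against 9.52, 9.57, 10.29 and 9.78 in the shoot libraries and a change of -7.25 (SE 0.31, limma adjusted p 9.7e-12). The outward channel KOR1 (Et_2A_017824), which releases potassium into the xylem, was higher by 1.15 (SE 0.30, limma adjusted p 0.0029), and potassium transporter 1 (Et_7B_053648) by 1.49.

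Peroxidases and laccases, secreted enzymes that couple lignin precursors in the wall, were higher in root for most members. Of 47 genes 39 were higher (83.0%, against 32.9% of all genes), 1 was lower and 7 did not pass, and 36 of the 39 differed at least 2-fold. The median change was 4.26, and the list took 1.08% ± 0.238 of root reads and 0.119% ± 0.0392 of shoot reads (SD, n = 4 each). Peroxidase 47 (Et_8B_060541) had values of 11.48, 11.35, 12.18 and 11.45 in the root libraries, against 6.32, 6.80, 5.42 and 6.61 in the shoot libraries, with all root libraries above all shoot libraries and a change of 5.33 (SE 0.28, limma adjusted p 7.6e-11). The cationic peroxidase SPC4 (Et_7A_051522) was higher by 4.70. The single member lower in root was peroxidase 70 (Et_1A_007725, -1.26). Where members share a description, the division of reads among near-identical copies is uncertain, here and in the other families.

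The enzymes that make the lignin precursors did not share that direction. Of 46 phenylpropanoid genes 18 were higher (39.1%) and 17 lower (36.96%), near the shares of all genes, with a median of -0.09 (0.35 with scaling by the total). Cinnamoyl-CoA reductase 1 (Et_2A_017148), of the branch that makes lignin monomers, was higher by 0.70, while cinnamoyl-CoA reductase 2-like (Et_2A_016004) was lower, at -1.90. Cell wall genes had 32 of 68 members higher (47.1%) and 14 lower (20.6%), against 32.9% and 33.7% of all genes, with a median of 0.41. Cellulose synthase subunit 8 was higher in both named genes, by 1.497 (Et_7A_052430) and 1.67 (Et_5A_041218), and subunit 2 (Et_4B_038270) was lower, at -0.78. With scaling by the total the change of subunit 2 was -0.33 and no longer passed.

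Genes of the water barriers were few. The 4 members of the Casparian and suberin list held none higher in root and 2 lower, against 32.9% and 33.7% of all genes. They were CASP-like protein 2C2 (Et_2A_017033, -4.37) and glycerol-3-phosphate acyltransferase 3 (Et_6A_047179, -1.77), whose family links fatty acids to glycerol in cutin and suberin. Of 23 cuticle and wax genes 10 were lower (43.5%, against 33.7%) and 8 higher (34.8%, against 32.9%), with a median of 0.16. 3-ketoacyl-CoA synthase 1 (Et_4B_039952), which lengthens fatty acids for wax, changed by -3.56, and long chain acyl-CoA synthetase 6 of peroxisomes (Et_6B_048721) by 1.17.

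Cell division and translation leaned to the root. Of 58 genes for cyclins, histones, tubulins, kinesins and replication proteins, 37 were higher (63.8%, against 32.9% of all genes), 7 lower and 14 did not pass, and the median was 1.38. Tubulin beta-5 chain (Et_3B_031227), a building block of microtubules, was higher by 2.62 (SE 0.46, limma adjusted p 9.0e-05), kinesin KIN-1 (Et_8B_059646) by 1.66 and histone H2B.3 (Et_1A_004789) by 0.84. The kinesin KIN-14I (Et_7B_053875) was lower, at -2.02. Of 19 ribosomal proteins 11 were higher (57.9%, against 32.9%) and none was lower, with a median of 0.47 and no change above 1.502. The 2 genes for 60S ribosomal protein L23, at the exit of the ribosomal tunnel, were higher by 1.06 (Et_1A_005978) and 1.09 (Et_1B_013734). Elongation factor 1-alpha (Et_7A_052574), which brings aminoacyl-tRNA to the ribosome, was higher by 0.87 (SE 0.16, limma adjusted p 1.8e-04).

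**Figure D3:**
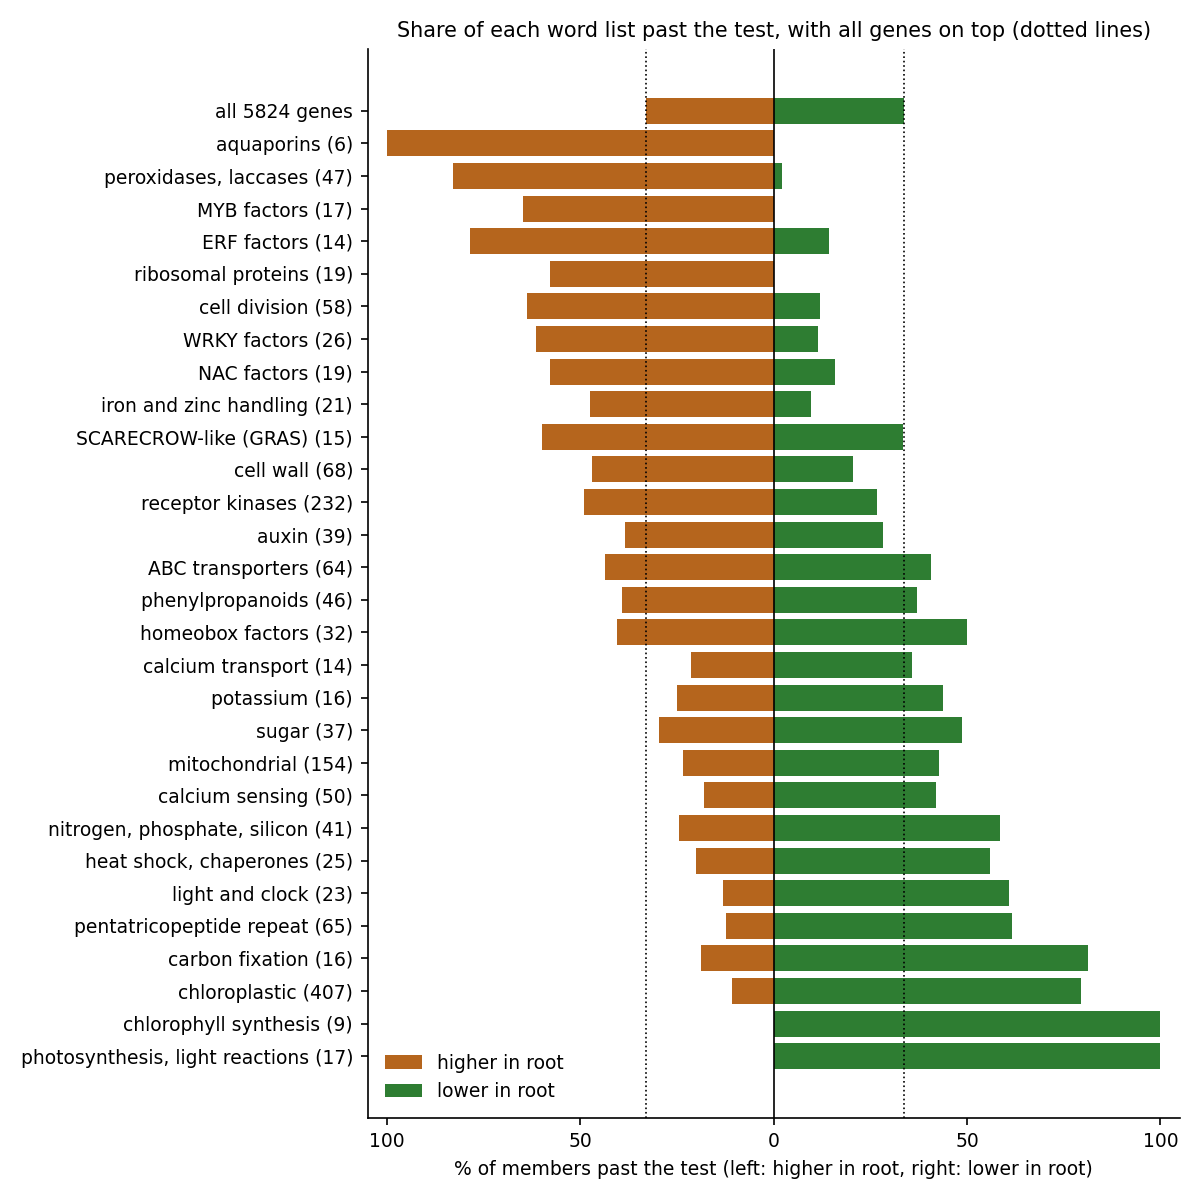
Share of each gene list, named by the words in the gene descriptions with its number of members, that was higher in root (bars to the left, % of members) or lower in root (bars to the right), against all 5824 genes in the top row and as dotted lines at 32.9% and 33.7%. Aquaporins and peroxidases reach furthest to the root side, and light reactions, chlorophyll synthesis and carbon fixation furthest to the shoot side.

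The MYB, WRKY, NAC and ethylene-responsive families of transcription factors had more members on the root side, beside 32.9% of all genes higher and 33.7% lower. Of 17 MYB genes 11 were higher (64.7%) and none lower (median 0.91), and of 26 WRKY genes 16 were higher (61.5%) and 3 lower (median 0.87). Of 19 NAC genes 11 were higher (57.9%) and 3 lower (median 0.95), and of 14 ethylene-responsive factors 11 were higher (78.6%) and 2 lower (median 1.15). Members differed widely within a family. WRKY24 (Et_3A_025401) had log2 values of 0.00 to 0.86 in root and 5.73 to 6.80 in shoot and a change of -6.07 (SE 0.48, limma adjusted p 1.1e-08), while WRKY 6-like (Et_3B_028873) was higher by 1.49. MYBS3, which in rice represses a sugar-regulated amylase gene, was higher in both named genes, by 1.25 (Et_9B_064158) and 3.03 (Et_3B_031150). NAC 21/22 (Et_10A_001289), whose Arabidopsis namesake acts in lateral root formation, was higher by 1.94 (SE 0.22, limma adjusted p 9.2e-07). NAC 7 (Et_1B_013297) and NAC 43 (Et_8B_059652), from the groups that control xylem vessels and fibre walls, were lower, at -3.99 and -3.18.

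Regulators of organ patterning included genes known from root anatomy. SHORT-ROOT 1, a mobile factor that specifies the endodermis, had values of 6.95, 6.80, 7.17 and 6.57 in the root libraries, against 0.98, 2.99, 2.73 and 2.14 in the shoot libraries in its B copy (Et_5B_043115). Root lay above shoot in every library, with changes of 4.66 (SE 0.56, limma adjusted p 1.4e-06) in the B copy and 3.17 in the A copy (Et_5A_042856). SCARECROW 1-like (Et_6A_048183), named after the partner of SHORT-ROOT, was lower, at -1.48 (SE 0.23, limma adjusted p 3.1e-05). In the whole GRAS list 9 of 15 were higher (60%) and 5 lower (33.3%), against 32.9% and 33.7% of all genes. Scarecrow-like 1 was higher (0.98 in Et_9B_064436) and scarecrow-like 27 lower (-1.33 in Et_1B_014354). Homeobox genes divided into 13 higher (40.6%) and 16 lower (50%) of 32, and their median of -0.35 became 0.10 with scaling by the total. HOX33 (Et_10B_003225) was higher by 4.36 and HOX32 by 1.62 (Et_4A_033265) and 1.94 (Et_4B_037435). BEL1-like homeodomain protein 4 (Et_4A_033712), from a family that acts in the shoot apex, was lower, at -3.16.

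Of 19 SPL, TCP and growth-regulating factor genes 9 were higher (47.4%) and 5 lower (26.3%), against 32.9% and 33.7% of all genes (median 0.07). SPL12 (Et_2B_021419) was lower, at -2.47, and SPL19 (Et_6A_047784) higher by 1.46. Of 18 bHLH genes 6 were higher (33.3%, against 32.9% of all genes), 2 lower and 10 did not pass (median 0.26). With scaling by the total 13 were higher and none lower, beside 2789 higher and 1347 lower of all 5824 genes. Both genes described as bHLH128 were higher, by 2.86 (Et_7B_055322) and 4.62 (Et_1B_013467).

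Of 39 auxin genes 15 were higher (38.5%) and 11 lower (28.2%), near the 32.9% and 33.7% of all genes (median 0.01), with auxin response factor 17 (Et_2A_016916) higher by 1.45 and factor 18 (Et_2A_016884) lower at -1.80. Of 15 cytokinin and gibberellin genes 3 were higher (20%) and 7 lower (46.7%, median -0.74). With scaling by the total these were 4 and 5, beside 2789 higher and 1347 lower of all 5824 genes. Isopentenyltransferase 5 (Et_4B_039722), a first step of cytokinin synthesis, was higher by 2.29 (SE 0.34, limma adjusted p 1.4e-05), and cytokinin dehydrogenase 3 (Et_1B_010789), which breaks cytokinin down, was lower at -3.53 (SE 0.27, limma adjusted p 6.5e-09). Of 10 jasmonate, ethylene and abscisic acid genes 5 were higher (50%) and 1 lower (10%, median 0.57). The lipoxygenase Et_4A_033533 (2.64) was among the higher ones.

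Genes that handle calcium, the nutrient varied in the study, also stood on both sides. Of 14 calcium transport genes 3 were higher and 5 lower, and of 50 calcium sensing genes 9 were higher (18%), 21 lower (42%) and 20 did not pass, against 32.9% and 33.7% of all genes. With scaling by the total calcium transport had 7 higher and 3 lower, and calcium sensing 14 higher and 13 lower. Their medians of -0.08 and -0.32 became 0.37 and 0.13 with scaling by the total. Over all 5824 genes that scale gave 2789 higher, 1347 lower and a median of 0.41, above both. The vacuolar cation/proton exchanger 1a (Et_3B_028509), which moves calcium into the vacuole, had values of 7.01, 7.57, 6.14 and 7.79 in the root libraries, against 11.26, 11.36, 11.84 and 12.04 in the shoot libraries and a change of -4.50 (SE 0.35, limma adjusted p 8.9e-09). The plasma membrane calcium ATPase 10 (Et_4B_039870), which pumps calcium out of the cell, was lower, at -0.98 (SE 0.36, limma adjusted p 0.025). Shoot replicate 3 was far above the other shoot libraries for this gene, and without it the change was -0.45. Annexin D7, a membrane-binding protein regulated by calcium, was higher in both, by 2.65 (Et_1A_007378) and 2.15 (Et_1B_012333). The CDPK-related kinase 3 (Et_2B_021459) was higher by 1.55, and calmodulin-binding protein 60 D (Et_1B_010395) lower at -1.33.

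Receptor kinases, the surface proteins that sense peptides and wall fragments, had 114 of 232 members higher in root (49.1%, against 32.9%), 62 lower and 56 not passed, with a median of 0.49. A leucine-rich repeat receptor kinase (Et_8A_058293) was among the largest rises, at 7.25 (SE 0.41, limma adjusted p 2.1e-10). Disease resistance proteins of the NBS-LRR class were near the shares of all genes, with 18 of 61 higher (29.5%) and 21 lower (34.4%) and a median of -0.20. With scaling by the total these were 25 higher and 14 lower, with a median of 0.25 beside 0.41 for all genes. The member RXW24L (Et_9A_062463) was higher by 7.07. MLO-like protein 1 (Et_5A_041102), from a family in which some members admit powdery mildew, was higher by 7.19.

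Cytochrome P450 genes were 14 higher and 13 lower of 31 (45.2% and 41.9%, against 32.9% and 33.7% of all genes; median -0.33, 0.13 with scaling by the total), and ABC transporters 28 higher and 26 lower of 64 (median 0.09). Genes described as ABCG36, a family member that exports defence compounds in Arabidopsis, differed in direction, with Et_8A_056824 higher by 1.47 and Et_3B_028752 lower at -1.62. Heat shock proteins and chaperones had 5 of 25 higher and 14 lower (20% and 56%, against 32.9% and 33.7% of all genes), with a median of -0.49. With scaling by the total these became 9 higher and 11 lower, with a median of -0.04 beside 0.41 for all genes. The chloroplast chaperone ClpC1 was lower in both copies (-1.48 in Et_7A_051977 and -1.03 in Et_7B_053636) and a small heat shock protein (Et_6A_048132) was higher by 3.58. Of 17 genes of the small RNA pathway, the argonautes, Dicers and RNA-dependent RNA polymerases that make and use small RNAs, 6 were higher and 7 lower (median 0.01), and 8 and 4 with scaling by the total. The first 2 counts are 35.3% and 41.2%, against 32.9% and 33.7% of all genes. With scaling by the total 2789 of all 5824 genes were higher and 1347 lower. Dicer homolog 1 was lower in both copies, at -1.70 (Et_4A_032425) and -1.36 (Et_4B_039236), and argonaute 1B was higher in Et_1B_010421 (1.06) and lower in Et_7B_054938 (-1.11).

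Of the 218 genes with values but no named hit in a related grass, 81 were higher (37.2%), 69 lower (31.7%) and 68 did not pass, near the shares of all genes. Among them, Et_7A_051565 was the only gene without a read in the 4 root libraries, against 769 reads in shoot. Its share of gene reads was at least 266-fold lower in root, with root at the floor of 3 counts over the group. In shoot, 2 genes had no read. UDP-glycosyltransferase 90A2 (Et_2B_022614), from a family that adds sugars to small molecules, had 418 reads in root. Its share of gene reads was at least 133-fold higher there. The lectin-domain receptor kinase S.7 (Et_2B_022883) had 373 reads in root, with a share at least 119-fold higher. All of these bounds compare shares of gene reads and not the deposited scale. On the deposited scale the bounds of the 2 genes higher in root would be lower, and they were not computed. With 1 library left out the number of genes without a read in a tissue was 6 without root replicate 2 and 10, 5, 6 and 5 without shoot replicates 1, 2, 3 and 4, and 19 genes had at most 1 read over the 4 libraries of a tissue. All other genes had reads in both tissues, and 5766 genes had reads in every root library and 5699 in every shoot library. Reads without molecular identifiers are not independent molecules, so these limits cover counting error only.

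The A and B copies of a gene were paired where both subgenomes held a single gene with the same best hit on the same chromosome number, which gave 1392 pairs. In most pairs the copies shared their tissue side. Both copies were higher in 334 pairs and both lower in 371, a single copy passed in 360, neither passed in 305, and the copies passed in opposite directions in 22. Across pairs the log2 changes of the A and the B copy had a Pearson correlation of 0.891, given as a description since the copies come from the same libraries and may share reads. The difference between the copies in their tissue change, tested in limma over all pairs, passed in 657 pairs (47.2%), and reached 2-fold in 261 (18.8%) and 4-fold in 89. It pointed to a more root-sided A copy in 329 pairs and to a more root-sided B copy in 328. Summed over all genes, A genes took 50.8% ± 0.571 of root reads and 47.6% ± 0.332 of shoot reads (SD, n = 4 each).

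**Figure D4:**
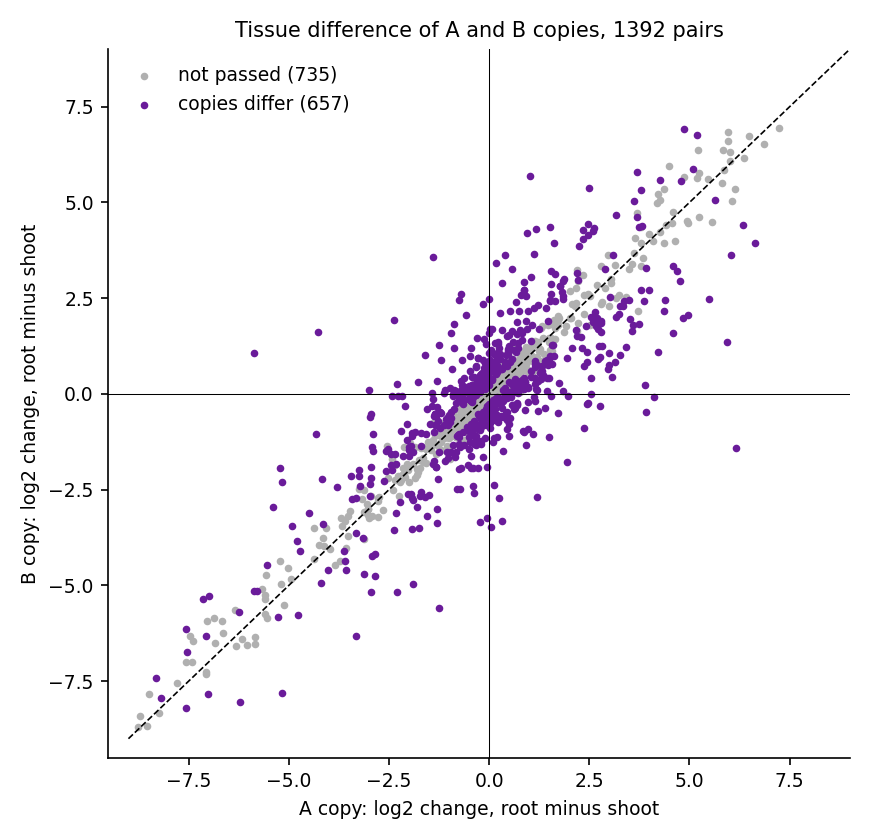
Log2 change (root minus shoot) of the A copy (x axis) against that of the B copy (y axis) for 1392 pairs, coloured where the difference between the copies passed the limma test (657 pairs). Most pairs lie along the dashed line of equal change, and few lie in the upper left or lower right corner, where the copies point to opposite tissues.

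The pair with the smallest p was ervatamin-B, a papain-like cysteine protease. Its A copy (Et_2A_015733) had values of 9.05, 9.24, 8.79 and 8.94 in the root libraries, against 4.55, 5.34, 4.92 and 5.66 in the shoot libraries, a change of 3.89. The B copy (Et_2B_019872) had values of 9.68, 9.79, 9.13 and 9.66 in the root libraries, against 9.04, 9.32, 9.11 and 9.83 in the shoot libraries, which overlap between the tissues and did not pass at 0.24. The difference between the copies was 3.65 (A minus B, SE 0.13, limma adjusted p 3.5e-13). In the calcium-signalling kinase CIPK9 the A copy (Et_4A_032628) did not pass, at 0.05, whereas the B copy (Et_4B_036730) was lower at -3.48, a difference of 3.53 (A minus B, SE 0.17, limma adjusted p 1.3e-11). Polyamine oxidase 4, which breaks down spermine, had a B copy higher by 1.59 (Et_7B_053672) and an A copy at 0.01 that did not pass (Et_7A_051051).

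Some pairs divided between the tissues. The wall-associated receptor kinase 2, which binds pectin, was lower in its A copy (Et_1A_005512, -4.26) and higher in its B copy (Et_1B_013625, 1.61), a difference of -5.87 (A minus B, SE 0.29, limma adjusted p 1.5e-11). The call of that B copy was lost without root replicate 3 (1.23), root replicate 4 (1.496), shoot replicate 1 (1.43) or shoot replicate 2 (1.20). The post-GPI attachment factor 3, which remodels lipid anchors of proteins, was lower in A (Et_9A_061701, -2.37) and higher in B (Et_9B_064283, 1.92). Thermospermine synthase ACAULIS5, needed for xylem development in Arabidopsis and named here after its value was seen, had values of 8.93, 8.81, 9.29 and 9.12 in the root libraries, against 3.66, 3.16, 1.09 and 3.60 in the shoot libraries in A (Et_1A_007729). Its B copy (Et_1B_012528) had values of 7.46, 7.64, 8.003 and 8.15 in the root libraries, against 9.25, 9.14, 9.82 and 8.67 in the shoot libraries. The A copy was higher by 6.16 and the B copy lower at -1.41, with a difference of 7.57 (A minus B, SE 0.58, limma adjusted p 5.6e-09).

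The tissue comparison was repeated in the 8 libraries grown with low calcium, fitted on their own. There 3254 of 5824 genes passed, 1628 higher and 1626 lower in root. Fitted alone the optimum-calcium libraries gave 3769. The 2 sets shared 2808 genes with the same direction, 74.5% of the optimum-calcium calls and 86.3% of the low-calcium calls, and 27 passed in opposite directions. Among the 2626 optimum-calcium calls of at least 2-fold, 2302 (87.7%) passed in the same direction under low calcium. YSL16 (Et_3B_031448) was higher by 5.72 under low calcium, nicotianamine synthase 2 (Et_4A_031983) by 6.46 and peroxidase 47 (Et_8B_060541) by 5.18. Chlorophyll a-b binding protein 1 (Et_2B_022256) was lower there, at -7.35, and so was GLK2 (Et_3A_023610), at -6.93. Not every list repeated as closely (lists picked after their values were seen, fit of all 16 libraries). Peroxidases had 27 of 47 higher and 4 lower under low calcium (median 1.66). Cell wall genes had 22 of 68 higher and 25 lower (median -0.17). Cuticle and wax genes had 3 of 23 higher and 17 lower (median -2.54). Of the light-reaction genes 16 of 17 were lower (median -6.80), and all 6 aquaporins were higher (median 2.56). A low-calcium library, shoot replicate 4, has a title that names both tissues and was taken as shoot by its source name. Its shoot-marker reads made up 8.12% of its reads, below the 11.3% to 12.3% of the other 3 low-calcium shoot libraries and far above the 0.0939% to 0.0976% of the low-calcium root libraries. Without it the 2 sets shared 2897 genes.

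The size of the tissue difference itself changed with calcium in 431 genes (7.40%), 325 (5.58%) more root-sided at optimum calcium and 106 (1.82%) more shoot-sided. This count moved with single libraries, to 268 without optimum-calcium root replicate 1, to 704 without low-calcium shoot replicate 3, and, for the low-calcium root libraries, to 276 with replicate 2 left out and 261 with replicate 4 left out. Without low-calcium shoot replicate 4, the library whose title names both tissues, 271 genes passed, 226 more root-sided and 45 more shoot-sided at optimum calcium, and 266 of the 271 were among the 431 with the same direction. The count fell to 267 with voom and to 151 of 4540 genes with a mean log2 value of at least 6. Alcohol dehydrogenase 2 (Et_6A_047661), which keeps fermentation going when oxygen is short, had values of 12.68, 12.12, 11.93 and 12.77 in the root libraries, against 6.84, 7.33, 7.34 and 7.42 in the shoot libraries at optimum calcium. It was higher by 5.14 at optimum and at 0.84 under low calcium, and the changes differed by 4.30 (SE 0.35, limma adjusted p 9.0e-06). The respiratory burst oxidase B (Et_10B_003796), which makes superoxide at the cell surface, was higher by 5.88 at optimum calcium and had a change of 0.50 under low calcium, and the changes differed by 5.37 (SE 0.65, limma adjusted p 3.8e-04). Of the 6 genes with the smallest p, 3 belong to cuticle lipids. Cytochrome P450 86A4 (Et_7A_053112) was higher by 3.35 at optimum calcium with a change of -2.49 under low calcium, BODYGUARD 3 (Et_2A_015401) had changes of 1.48 and -3.11, and the wax ester synthase WSD1 (Et_4B_036831) had -0.65 and -3.15. Without low-calcium shoot replicate 4 all of these 5 genes still passed, with differences of 4.08, 5.07, 5.54, 4.41 and 2.63 in the order named. Genes whose tissue difference changed with calcium numbered 12 of 47 in the peroxidase list, against 7.40% of all genes. Other lists held such genes too, with 8 of 23 in cuticle and wax, 16 of 68 in cell wall and 8 of 39 in auxin. None of the 17 light-reaction genes was among them.

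**Figure D5:**
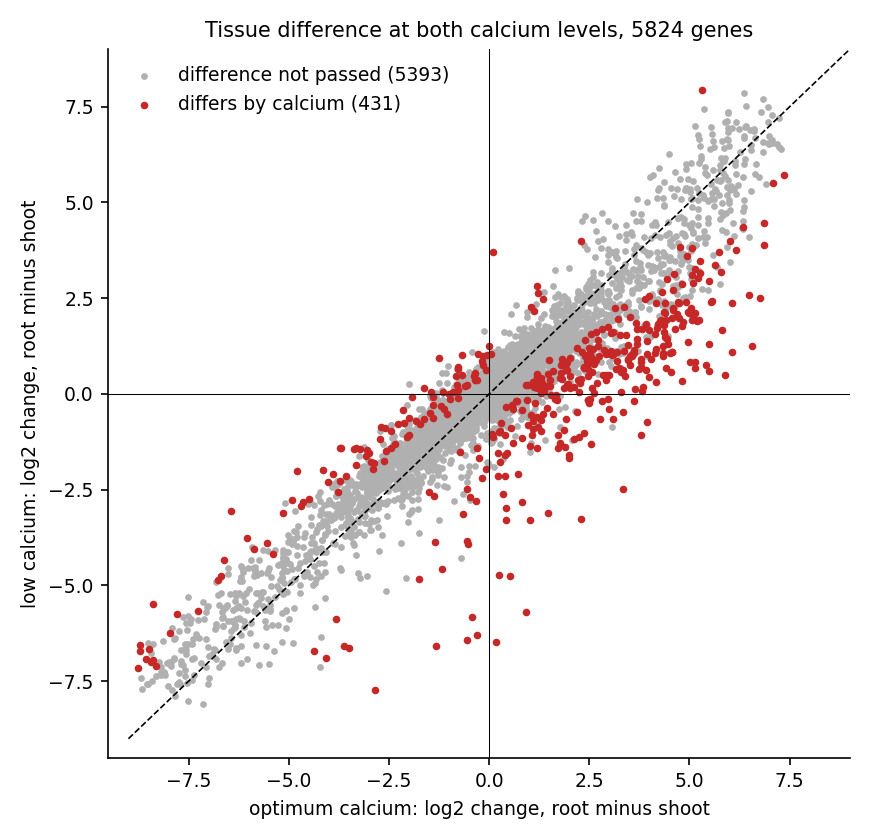
Log2 change (root minus shoot) of each of 5824 genes at optimum calcium (x axis) against that under low calcium (y axis), coloured for the 431 genes whose difference between the calcium levels passed the limma test. Most genes lie near the dashed line of equal change, and more of the coloured genes lie below it, where the change is more root-sided at optimum calcium.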

How the data were processed

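Reads on genes were compared between root and shoot of tef grown with optimum calcium, with 4 libraries each, within a series of 16. Groups came from the tissue and treatment labels. Per the file headers, the deposited table gives values for 5824 genes with 16 library columns and lists 5634 further IDs without values. The values are deposited log2 values: raising 2 to each value and taking off 1 leaves a whole multiple of 1 step per library for 100% of 93184 values (tolerance 0.1 of a step), so they are log2(scaled reads + 1) and whole reads were recovered. Through the offset of 1, fold changes of weakly read genes are understated. The aligner, genome build, counting software and the choice of genes are not given in the sources used. A block of read counts per length that the authors deposited in 16 columns was not used here.

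Differences were tested with limma 3.58.1 (R 4.3.3) with an intensity trend on the deposited values of all 16 libraries, 1 coefficient per group and Benjamini-Hochberg adjustment over all genes at 0.05. The test was also run on simulated data, in which far fewer genes were changed than differed here and libraries otherwise differed only in depth. That run cannot show how the test behaves under a tissue difference of this breadth. A and B copies were paired where exactly 1 A and 1 B gene with values shared best hit, description and chromosome number, and limma was run on their difference within each library. Of 5606 described genes 3605 share their description with another gene. Depth was compared with a two-sided exact permutation test. The rest used scipy 1.17.1, pandas 2.3.3 and numpy 2.4.6 under Python 3.11.15.

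The 39 gene lists are words in the descriptions, and a gene may stand in several. Named genes were taken from the 15 largest changes in each direction, up to 3 members of each list per direction by mean level, the 6 pairs and the 6 calcium differences with the smallest p and the 10 genes with most reads per tissue, not all of which are printed. Others named were chosen after their values were seen: SHORT-ROOT 1, SCARECROW 1-like, phosphate transporter 1-8, the B copy of ammonium transporter 1 member 2, the A copy of nicotianamine synthase 3, Rubisco activase, chlorophyll a-b binding protein 7, geranylgeranyl diphosphate reductase, ACAULIS5, the genes without reads and those of the closing observations. Members and lists were chosen with earlier results of these data known. Alternatives were other scalings, a pseudocount of 0.1, a mean log2 value of at least 6, only the optimum-calcium libraries, a replicate block, voom, a 2-fold minimum, at most 1 read in place of none, pairing by description alone and leaving out each library in turn (for the low-calcium libraries added after the data were seen).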

Additional observations from a re-analysis of the deposited data

Results flagged for a closer look

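In 20 of 334 sets of 4 values (166 named genes in each tissue, and depth in each tissue), a single library stood so far from the other 3 that its gap, divided by the range, passed Dixon's critical value for 4 samples. Chance flags about 1 in 20 such sets, and the share here is close to that. The sets come from the same libraries and are not independent, so that rate does not describe how the flags gather. Root replicate 3, the library farthest from the others of its tissue, held the most flags. Root replicate 2 had a log2 value of 0 for CASP-like protein 2C2 (Et_2A_017033), against 0.76 to 0.86 in the other 3. Root replicate 3 had a log2 value of 9.76 for the A copy of ribosomal protein L23 (Et_1A_005978), against 9.41 to 9.46 in the other 3, and 10.15 for the B copy of annexin D7 (Et_1B_012333), against 9.25 to 9.28 in the other 3. It had 8.03 for scarecrow-like 27 (Et_1B_014354), against 7.67 to 7.72 in the other 3, and 11.91 for galactosyltransferase 6 (Et_2A_017107), against 13.29 to 13.44 in the other 3. It had 7.91 for a MYBS3 gene (Et_3B_031150), against 8.79 to 8.84 in the other 3, and 9.81 for kinesin KIN-1 (Et_8B_059646), against 9.51 to 9.55 in the other 3. It had 12.18 for peroxidase 47 (Et_8B_060541), against 11.35 to 11.48 in the other 3. Root replicate 4 had a log2 value of 0.86 for WRKY24 (Et_3A_025401), against 0 in the other 3, and 6.14 for the A copy of SHORT-ROOT 1 (Et_5A_042856), against 6.80 to 6.85 in the other 3. It had 0 for glutaredoxin-C14 (Et_6B_049094), against 1.72 to 1.91 in the other 3, and 6.24 for the A copy of glyceraldehyde-3-phosphate dehydrogenase A (Et_7A_051207), against 5.82 to 5.86 in the other 3. Shoot replicate 1 had a log2 value of 7.90 for CDPK-related kinase 3 (Et_2B_021459), against 7.67 to 7.70 in the other 3, and 6.84 for alcohol dehydrogenase 2 (Et_6A_047661), against 7.33 to 7.42 in the other 3. Shoot replicate 2 had a log2 value of 9.03 for NPF6.3 (Et_8B_059278), against 8.42 to 8.49 in the other 3. Shoot replicate 3 had a log2 value of 12.15 for calcium ATPase 10 (Et_4B_039870), against 9.92 to 10.07 in the other 3, and 0 for the leucine-rich repeat receptor kinase (Et_8A_058293), against 0.89 to 0.99 in the other 3. Shoot replicate 4 had a log2 value of 13.49 for the A copy of NAD-malic enzyme (Et_1A_007018), against 14.33 to 14.39 in the other 3, and 13.08 for the B copy of NAD-malic enzyme (Et_1B_011825), against 13.85 to 13.99 in the other 3. It had 9.50 for the A copy of Dicer homolog 1 (Et_4A_032425), against 9.83 to 9.85 in the other 3.

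The tissue change differed between optimum and low calcium in 31 of the 166 named genes, by a limma test of that difference (optimum minus low, adjusted p from 9.0e-06 to 0.0491). Over all 5824 genes the share was 7.40%. The low-calcium shoot group includes the library whose title names both tissues. Without that library 18 of the 31 still passed. The 13 that did not were the B copy of ACAULIS5, the B copy of phosphoenolpyruvate carboxylase 1, the A copy of ervatamin-B, auxin response factor 17, CASP-like protein 2C2, vacuolar cation/proton exchanger 1a, tubulin beta-5, nuclear factor Y subunit C-2, the B copy of expansin-B7, the B copy of glucose-1-phosphate adenylyltransferase, cellulose synthase subunit 8, sucrose-phosphate synthase 5 and the UPF0603 protein. The named genes include genes picked for the smallest p of this test and for the largest changes at optimum calcium. Both choices favour genes that pass, so the share among the named genes is not comparable with that of all genes. Among low-oxygen and cuticle genes the differences were as follows. Alcohol dehydrogenase 2 (Et_6A_047661) had a tissue change of 5.14 at optimum and 0.84 under low calcium, a difference of 4.30. For non-symbiotic hemoglobin (Et_1A_007077) the changes were 5.15 and 0.66, a difference of 4.48. Sucrose synthase 2 (Et_4B_037022) differed by 2.72, with 2.48 at optimum and -0.23 under low calcium. Cytochrome P450 86A4 (Et_7A_053112) had a tissue change of 3.35 at optimum and -2.49 under low calcium, a difference of 5.84. For BODYGUARD 3 (Et_2A_015401) the changes were 1.48 and -3.11, a difference of 4.59. WSD1 (Et_4B_036831) differed by 2.49, with -0.65 at optimum and -3.15 under low calcium. Wall, redox and transport genes followed. Respiratory burst oxidase B (Et_10B_003796) had a tissue change of 5.88 at optimum and 0.50 under low calcium, a difference of 5.37. For peroxidase 70 (Et_1A_007725) the changes were -1.26 and 0.94, a difference of -2.20. The A copy of expansin-B7 (Et_4A_033199) differed by 3.69, with 6.07 at optimum and 2.38 under low calcium. The B copy of expansin-B7 (Et_4B_036623) had a tissue change of 5.04 at optimum and 2.25 under low calcium, a difference of 2.79. For cellulose synthase subunit 8 (Et_5A_041218) the changes were 1.67 and -0.02, a difference of 1.69. CASP-like protein 2C2 (Et_2A_017033) differed by 2.33, with -4.37 at optimum and -6.70 under low calcium. YSL16 (Et_3B_031448) had a tissue change of 7.37 at optimum and 5.72 under low calcium, a difference of 1.65. For vacuolar cation/proton exchanger 1a (Et_3B_028509) the changes were -4.50 and -2.73, a difference of -1.76. The genes of leaf metabolism and greening given next had negative differences. All of them were named because they were among the largest falls in root at optimum calcium. That choice by itself favours a negative difference, as it favours a positive one for YSL16 and RXW24L, which were among the largest rises. Whether such genes as a group differ by calcium was not tested. The A copy of glucose-1-phosphate adenylyltransferase (Et_4A_033729) had a tissue change of -8.72 at optimum and -6.55 under low calcium, a difference of -2.17. For the B copy of glucose-1-phosphate adenylyltransferase (Et_4B_037873) the changes were -8.40 and -6.95, a difference of -1.44. Glycerate dehydrogenase (Et_6B_049049) differed by -1.99, with -8.70 at optimum and -6.71 under low calcium. Sucrose-phosphate synthase 5 (Et_6A_047584) had a tissue change of -8.48 at optimum and -6.65 under low calcium, a difference of -1.84. For the UPF0603 protein (Et_9A_061766) the changes were -8.75 and -7.15, a difference of -1.60. GLK2 (Et_3A_023610) differed by -1.63, with -8.57 at optimum and -6.93 under low calcium. Nuclear factor Y subunit C-2 (Et_4A_035845) had a tissue change of -8.43 at optimum and -7.00 under low calcium, a difference of -1.43. The other genes had these differences. The B copy of phosphoenolpyruvate carboxylase 1 (Et_1B_014155) had a tissue change of 3.26 at optimum and 1.54 under low calcium, a difference of 1.72. For glutamate-cysteine ligase A (Et_9B_064610) the changes were 2.46 and 1.02, a difference of 1.43. Tubulin beta-5 (Et_3B_031227) differed by 2.58, with 2.62 at optimum and 0.03 under low calcium. The B copy of ACAULIS5 (Et_1B_012528) had a tissue change of -1.41 at optimum and -0.09 under low calcium, a difference of -1.32. For a bHLH128 gene (Et_1B_013467) the changes were 4.62 and 3.14, a difference of 1.48. The A copy of ervatamin-B (Et_2A_015733) differed by 1.40, with 3.89 at optimum and 2.49 under low calcium. Auxin response factor 17 (Et_2A_016916) had a tissue change of 1.45 at optimum and 0.22 under low calcium, a difference of 1.23. For a MYBS3 gene (Et_3B_031150) the changes were 3.03 and 1.59, a difference of 1.44. A second MYBS3 gene (Et_9B_064158) differed by 0.99, with 1.25 at optimum and 0.26 under low calcium. RXW24L (Et_9A_062463) had a tissue change of 7.07 at optimum and 5.50 under low calcium, a difference of 1.57.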

How the results depend on the processing

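Of 166 named genes, 156 kept their direction and their side of the threshold under every alternative that could be computed. The 3878 genes past the test became 2660 with a 2-fold minimum, 2767 of 4540 with a mean log2 value of at least 6, 3769 with only the optimum-calcium libraries, and 3663 to 3906 with each of the 16 libraries left out in turn, where leaving out low-calcium libraries was added after the data were seen. Among the 4540 genes left by the filter, 1194 were higher in root, 1573 lower and 1643 past 2-fold, against 1916, 1962 and 2660 of 5824. Fewer genes were tested, but the higher side fell more than the lower side, and the cause of that was not tested. The 431 genes whose tissue change differed by calcium became 151 with the filter, 267 with voom and 261 to 704 with each library left out, and apart from the smaller number of genes tested the cause was not tested. Genes without reads in a tissue numbered 4 to 10 with each optimum-calcium library left out and 19 with at most 1 read, because fewer libraries or a looser limit were used. Pairs whose copies differed numbered 565 of 1231 when paired by description alone and 593 to 663 with each library left out, against 657. The copies of CIPK9 (Et_4A_032628, -0.18 to 0.24) and polyamine oxidase 4 (Et_7A_051051, -0.14 to 0.18) that did not pass changed sign when single libraries were left out. The repeat at low calcium could not be computed with only the optimum-calcium libraries.

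Libraries with the same replicate number did not deviate together throughout (correlations 0.0255, -0.00333, 0.117 and 0.242 for numbers 1 to 4). Root and shoot libraries with unlike numbers had correlations from -0.212 to 0.137, and not every library correlated best with its own number. Whether the numbers pair libraries cannot be told from these correlations, since paired libraries may still deviate apart. With the replicate block 3828 genes, 637 pairs and 426 calcium differences passed.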

Other observations

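Wall-loosening and wall-structure genes, picked by name after their values were seen and given without a test of the group, were mostly higher in root. Of 13 expansin genes, which loosen walls during cell growth, 11 were higher, none was lower and 2 did not pass, against 32.9% higher and 33.7% lower of all genes. Their median log2 change was 3.62 beside -0.04 for all genes. Expansin-B7 was higher by 6.07 (Et_4A_033199) and 5.04 (Et_4B_036623), and expansin-A11 (Et_3B_031366) by 5.997. Of 5 leucine-rich repeat extensin-like genes 4 were higher, against 32.9% of all genes, led by Et_3B_028672 at 5.88. Non-symbiotic hemoglobin (Et_1A_007077), which scavenges nitric oxide when oxygen is short, was higher by 5.15 (SE 0.61, limma adjusted p 1.2e-06).

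Some genes with a root in their name were lower in root. All 3 genes described as ROOT PRIMORDIUM DEFECTIVE 1, an RNA-processing protein of mitochondria in Arabidopsis, were lower, against 33.7% of all genes, at -2.82 (Et_7B_053411), -2.25 (Et_9A_060964) and -2.66 (Et_9B_063693). Root phototropism protein 2 (Et_10A_001256), which acts in the phototropin light response, was lower at -3.60.

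Further genes among the 15 largest changes in each direction have varied roles. Probable apyrase 3 (Et_8A_058424), an enzyme that cleaves nucleotides, was higher by 6.96, flavin-containing monooxygenase 1 (Et_2B_020108) by 6.91 and phospholipase A1-II 7 (Et_9A_062933) by 6.99. Glutaredoxin-C14 (Et_6B_049094), a small redox protein, was lower at -8.40, and 2 genes without a description were lower at -8.45 (Et_3A_023957) and -8.39 (Et_10B_004155).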
